A study of Homo sapiens with 3 samples.

Results

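The genes of endoplasmic reticulum (ER) protein folding and quality control were followed in cells labelled HGC-27. HGC-27 is an established human line from an undifferentiated gastric carcinoma. The set holds 55 of the 50868 genes in the deposited table, a list of gene names drawn up by function with earlier results of these data known, and all 55 were found. ERO1LB is listed in the file under its current symbol ERO1B. RNA was sequenced from 1 culture with an siRNA against IRF3, 1 with an siRNA against YAP and 1 with a control siRNA. The word knockdown below names the siRNA given, whether or not its target was lower. Each library was taken 48 h after transfection, at passage 6, and no treatment that provokes ER stress is named in the labels. IRF3 turns on interferon genes after viral sensing, and YAP is a coactivator that the Hippo kinases hold back. With 1 library per group no difference below has a replicate check or a p-value, and the siRNA sequences are not used here.

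Secreted and membrane proteins enter the ER through the Sec61 channel, receive N-linked glycans from the oligosaccharyltransferase and fold with the help of HSP70-type, HSP90-type and lectin chaperones and of disulfide isomerases. Proteins that fail to fold are carried back to the cytosol and degraded, a route called ER-associated degradation (ERAD). The unfolded protein response matches this capacity to demand: the sensors ERN1 (IRE1), EIF2AK3 (PERK) and ATF6 respond to unfolded protein, and the transcription factors ATF6 and spliced XBP1 raise many of the chaperone and ERAD genes. Splicing of XBP1 and the activity of the sensors are not visible in counts per gene.

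Many genes of this response carry a shared regulatory sequence, the ER stress response element, which is bound by ATF6 together with NF-Y. Promoters from RefSeq (GRCh38.p14), from 250 bases before to 50 bases after each annotated start, were matched for 49 of the 55 genes, and some genes have several starts. DERL1, DERL3, FKBP10, PDIA3, RPN1 and STT3B were not matched. The element, CCAAT and CCACG with 9 bases of any kind between them, searched on both strands, was present in 8 of the 49 genes (16.3%), against 25 of 27305 genes (0.0916%) in the whole promoter table. Those 8 genes were CALR, CANX, CRELD2, ERO1B, HSP90B1, HSPA5, PDIA6 and XBP1, which is 32.0% of all genes that hold the element. The related element II, ATTGG and CCACG with 1 base between them, was present in HERPUD1, HYOU1 and SDF2L1 (6.12% of the 49, against 0.0696% of all genes). Both elements are known from genes of this response, and the set was chosen by that function. The shares therefore describe these promoters and are no result about the set. The matches are shown with 5 flanking bases on each side, 5′ to 3′ on the strand of the gene, because they show what these promoters share. Capitals mark the element, and matches on the other strand read as its reverse complement.
HSPA5: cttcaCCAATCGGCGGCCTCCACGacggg
HSP90B1, distal: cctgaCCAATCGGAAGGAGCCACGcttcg
HSP90B1, proximal: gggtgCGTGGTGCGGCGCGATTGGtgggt
CRELD2: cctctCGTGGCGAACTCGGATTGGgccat
CALR: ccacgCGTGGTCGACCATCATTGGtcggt
CANX: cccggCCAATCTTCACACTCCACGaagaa
PDIA6: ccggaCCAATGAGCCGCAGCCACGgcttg
ERO1B: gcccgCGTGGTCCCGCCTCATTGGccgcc
XBP1: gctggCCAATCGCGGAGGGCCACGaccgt
HYOU1, element II, distal: cgtgaCGTGGTCCAATcccag
HYOU1, element II, proximal: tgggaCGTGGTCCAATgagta
SDF2L1, element II: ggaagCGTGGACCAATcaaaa
HERPUD1, element II: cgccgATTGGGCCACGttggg

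The best known of these promoters is that of HSPA5 (BiP), the main HSP70 of the ER. The 250 bases before its start (chr9:125241344-125241593, minus strand) are given with the exact match in capitals.
HSPA5 promoter: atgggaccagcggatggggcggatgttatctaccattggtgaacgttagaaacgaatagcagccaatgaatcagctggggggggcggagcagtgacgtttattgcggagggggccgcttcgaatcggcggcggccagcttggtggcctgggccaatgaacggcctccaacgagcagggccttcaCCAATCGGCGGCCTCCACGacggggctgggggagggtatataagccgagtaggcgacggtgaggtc
Another motif, the unfolded protein response element core TGACGTGG, was found on either strand in 8 of the 49 genes (DNAJC10, HYOU1, SEC62, SSR3, SSR4, TXNDC11, TXNDC5 and VCP), against 0.927% of all genes. In HYOU1 it overlaps the distal element II. A match describes these letters only and is not evidence of binding.

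**Figure D1:**
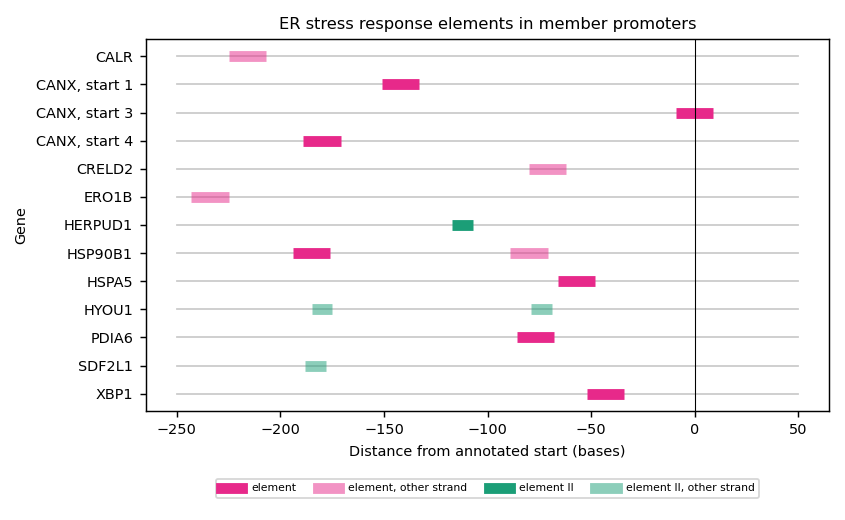
Position of each exact match to the ER stress response element (pink) or element II (green) relative to the annotated start, in bases, for 11 genes; pale bars are matches on the other strand, and CANX has a row for each annotated start with a match in its window. The matches lie between 243 bases before the start (ERO1B) and the start itself (1 start of CANX).

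The members were expressed above most genes of these cells. Of the 55, 52 had a mean of at least 1 FPKM (fragments per kilobase of gene, scaled to the depth of the library) over the 3 libraries and were kept, and their median level was 22.7 FPKM, beside 4.64 FPKM over all 11103 genes kept. DNAJC10, EDEM3 and DERL3 fell short of the filter. A mean of at least 10 FPKM was reached by 34 of the 52 (65.4%), against 28.7% of all genes kept. Together the 55 genes took 1.275% of all counts with IRF3 siRNA, 1.304% with YAP siRNA and 1.293% with control siRNA. The exact (Clopper-Pearson) intervals of these shares were 1.269 to 1.28%, 1.299 to 1.31% and 1.287 to 1.299%, and they cover counting error only. The sum over all members thus differed by little between libraries.

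The gene lengths behind the deposited FPKM, recovered from FPKM and counts, were a median of 1.49 times the union of annotated exons for these genes, with a range of 1.0 to 3.26. Levels of different genes are therefore compared per kilobase of annotated exon. On that scale the control library held 486 for CALR, 244 for PPIB, 187 for PDIA4, 176 for P4HB and 157 for HSPA5. P4HB stood at 64.2 in the deposited FPKM, so its place in the order depends on the length used. Count ratios between libraries do not depend on the length, but ratios of FPKM plus 1 and the filter do. With FPKM rebuilt on annotated exon length, 54 members were kept, and 6 with IRF3 siRNA and 7 with YAP siRNA were at least 1.5-fold lower than control, where 7.29% and 5.93% of all genes kept were. With the deposited FPKM, used below, each number was 4.

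**Figure D2:**
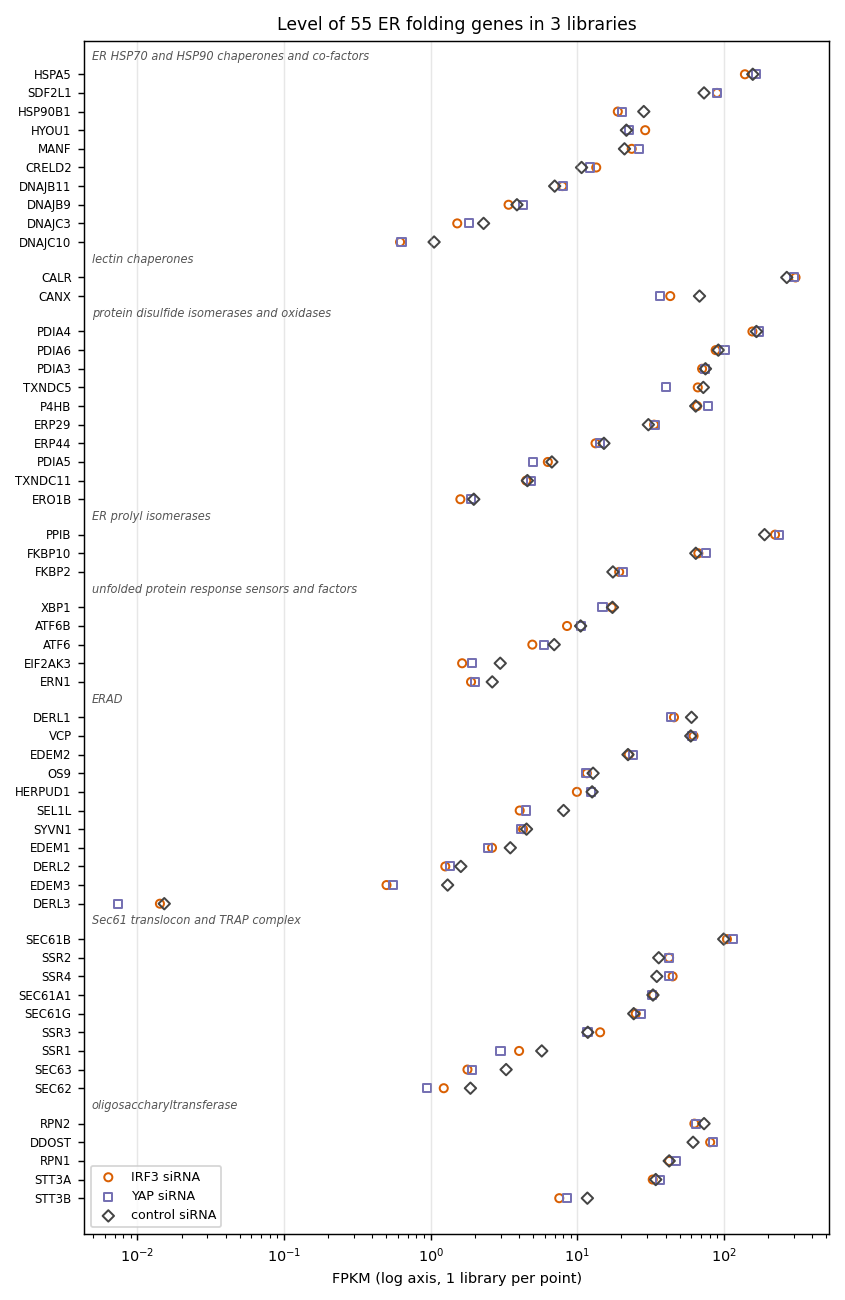
Deposited FPKM (log axis) of each of the 55 genes in the IRF3 siRNA (circle), YAP siRNA (square) and control siRNA (diamond) library, grouped by role and ordered by control level. For most genes the 3 symbols lie close together. Genes whose control symbol stands to the right of both knockdowns include CANX, SEL1L, SEC63, EDEM3, EIF2AK3, HSP90B1, SSR1 and SEC62.

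Facts of the whole series bear on how these values are read. Counts assigned to genes came to 14941556 with IRF3 siRNA, 14385959 with YAP siRNA and 13949401 with control siRNA. IRF3 stood at 2.90 FPKM with its own siRNA, 3.86 with YAP siRNA and 3.55 with control siRNA, a log2 ratio of -0.22 with IRF3 siRNA, which is short of the 1.5-fold rule used below, so this gene checks that library's label only weakly. IRF3 shares exon sequence with BCL2L12, and their summed counts gave -0.02. YAP1 stood at 3.58, 2.23 and 5.89 FPKM in that order, a log2 ratio of -1.09 with YAP siRNA and -0.59 with IRF3 siRNA. With the trend over expression level, exon length and GC content over all genes removed, YAP1 had -0.88 and -0.32. On that scale IRF3 had -0.28 with IRF3 siRNA. The epithelial markers EPCAM, CDH1, KRT8, KRT18 and KRT19 were all under 0.5 FPKM in every library. Of the mesenchymal markers VIM stood at 450.6 to 511 FPKM, FN1 at 6.16 to 9.33 and CDH2 at 0.056 to 0.13. The fibroblast genes COL1A1 (222 to 266), COL1A2 (5.94 to 6.49), DCN (15.6 to 17.2) and LUM (13.6 to 19.01) were expressed. The labels name HGC-27, a carcinoma line, and these marker levels do not show an epithelial character. The identity of the cells was not tested. Of the other cell types, PTPRC, CD14, CD68, PECAM1, VWF and CDH5 were at most 0.20 FPKM, CD3E was at 0 except with IRF3 siRNA (0.0098), and HBA1 and HBB lay between 2.63 and 4.79 FPKM. In RNA from whole cultures, fewer cells of a kind and less RNA per cell cannot be told apart.

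The comparisons with control asked which of these genes differed in the libraries with IRF3 siRNA or YAP siRNA. Ratios are log2 values of FPKM plus a pseudocount of 1, which shrinks the ratios of low genes, so the count ratio scaled by library total is given too. On this scale no kept member reached a 2-fold difference in any comparison. EDEM3, under the filter, was past 2-fold against control in its count ratios, given with the ERAD genes. With IRF3 siRNA 4 of 52 members were at least 1.5-fold lower (SEL1L, CANX, SEC63 and EIF2AK3), where 5.88% of all genes kept were, and none was 1.5-fold higher, where 1.59% were. With YAP siRNA 4 of 52 were at least 1.5-fold lower (CANX, TXNDC5, SSR1 and SEL1L), where 4.64% of all genes kept were, and none was higher, where 1.59% were. At 2-fold the shares of all genes kept were 0.387% higher and 0.612% lower with IRF3 siRNA, and 0.351% higher and 0.468% lower with YAP siRNA. The members' counts past 1.5-fold are read against these shares and are no result about the set.

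The median log2 ratio of the 52 members was -0.07 with IRF3 siRNA, beside -0.03 over all genes kept, and 32 members (61.5%) were below 0 and 20 above, against 53.9% of all genes kept below 0. With YAP siRNA it was 0.00, beside -0.02 over all genes kept, with 26 members on each side of 0, against 53.4% of all genes kept below it. The middle of the members ran from -0.31 to 0.09 (quartiles) with IRF3 siRNA and from -0.24 to 0.15 with YAP siRNA. Both comparisons share the control library, so members that stand alike in both are not 2 independent observations.

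**Figure D3:**
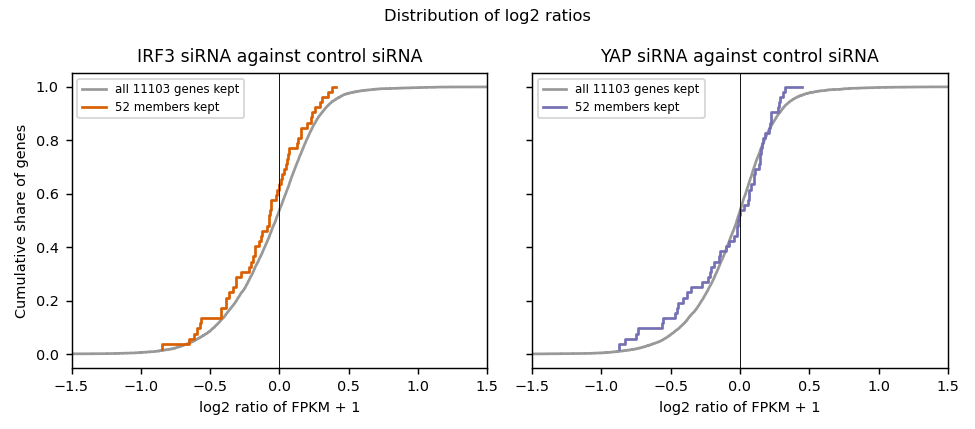
Cumulative share of genes (vertical axis) by log2 ratio of FPKM + 1 to control siRNA (horizontal axis), for the 52 members kept (colour) and all 11103 genes kept (grey), IRF3 siRNA left and YAP siRNA right. The coloured curves stop between -0.87 and 0.45, so no member lies in the tails past 2-fold.

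Among the HSP70 and HSP90 chaperones and their helpers, 9 of 10 genes were kept, and the group median was 0.15 with IRF3 siRNA, against 0.11 with YAP siRNA. HSPA5, which binds nascent and unfolded chains, had 139 FPKM with IRF3 siRNA, 166 with YAP siRNA and 157 with control siRNA. Its counts were 8120, 9335 and 8580, and relative to control its count ratio came to 0.884 (0.857 to 0.911, the 95% interval for counting error) with IRF3 siRNA and 1.06 (1.02 to 1.09) with YAP siRNA. The highest and lowest HSPA5 levels thus lay in the knockdown libraries, on either side of control. HSP90B1 (GRP94), the HSP90 of the ER, had 18.9, 20.2 and 28.4 FPKM in the same order, with log2 ratios of -0.56 and -0.47. Its count ratios were 0.665 (0.629 to 0.703) and 0.712 (0.674 to 0.752), so with IRF3 siRNA it was past 1.5-fold by counts and just short of it on the log2 scale. HYOU1 (GRP170), a nucleotide exchange factor for HSPA5, had 29.05, 22.5 and 21.6 FPKM, and its count ratio was 1.34 (1.29 to 1.39) with IRF3 siRNA against 1.04 (1.001 to 1.083) with YAP siRNA. Its log2 ratio of 0.41 with IRF3 siRNA was the highest of all members in that comparison, short of 1.5-fold.

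The J-domain helpers of HSPA5 differed among themselves. DNAJC3 (p58IPK) had 1.52, 1.81 and 2.30 FPKM with IRF3, YAP and control siRNA, a log2 ratio of -0.39 and -0.23. Its count ratios were 0.661 (0.534 to 0.817), past 1.5-fold, and 0.790 (0.644 to 0.969). With the trend over expression level, exon length and GC content removed, its log2 ratios were -0.13 and -0.02. DNAJC10 (ERdj5), a reductase that acts in ERAD, was under the filter at 0.619, 0.633 and 1.06 FPKM, with count ratios of 0.586 (0.5003 to 0.685) and 0.599 (0.511 to 0.702). DNAJB11 (ERdj3) had log2 ratios of 0.15 and 0.16, and DNAJB9 (ERdj4) had -0.15 and 0.11, with counting intervals of the ratio that include 1. The small stress-induced proteins SDF2L1 (0.29 and 0.29), MANF (0.16 and 0.31) and CRELD2 (0.31 and 0.18) had ratios above 0 in both knockdowns. With the trend over expression level, exon length and GC content removed, SDF2L1 was near 0 (0.01 and 0.07). On that scale MANF had 0.08 and 0.22, and CRELD2 had 0.28 and 0.17.

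The lectin chaperones hold glycoproteins while they fold, and the 2 of them differed in their ratios to control. CANX (calnexin, ENSG00000127022, chromosome 5, 179678628 to 179730925, hg38), the membrane-bound lectin, had 43.1 FPKM with IRF3 siRNA, 36.8 with YAP siRNA and 68.2 with control siRNA, from 6630, 5459 and 9798 counts. The control library was the highest and the YAP siRNA library the lowest. CANX fell by 0.65 on the log2 scale with IRF3 siRNA and by 0.87 with YAP siRNA, the lowest value of any member in that comparison, with count ratios of 0.632 (0.612 to 0.652) and 0.540 (0.523 to 0.559). With the trend over expression level, exon length and GC content over all genes removed, these were -0.50 and -0.77, so only the YAP siRNA value stayed past 1.5-fold. CALR (calreticulin), the soluble lectin and the most abundant member, had 308, 299.6 and 268 FPKM in the same order. Its log2 ratios were 0.20 and 0.16, and with the trend removed they were 0.03 and 0.00.

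The disulfide isomerases and oxidases, which form and shuffle disulfide bonds, were all 10 kept, and the group median was -0.08 with IRF3 siRNA, against 0.02 with YAP siRNA. TXNDC5 (ERp46, ENSG00000239264, chromosome 6, 7881517 to 7910814) had 66.4 FPKM with IRF3 siRNA, 40.3 with YAP siRNA and 72.4 with control siRNA, from 5133, 3004 and 5228 counts. The IRF3 siRNA and control libraries lay close together and the YAP siRNA library apart. Its log2 ratio with IRF3 siRNA was -0.12, and it fell by 0.83 with YAP siRNA, a count ratio of 0.557 (0.533 to 0.583). Removal of the trend gave -0.88 with YAP siRNA. Summing of its counts with the overlapping readthrough gene BLOC1S5-TXNDC5 gave -0.06 with IRF3 siRNA. The sum left the YAP siRNA value as it was, at -0.83, so it is no check of that value. PDIA5 had 6.301, 5.03 and 6.71 FPKM, with log2 ratios of -0.08 and -0.36. P4HB (PDI, which is also a subunit of collagen prolyl hydroxylase) had 65.6, 78.3 and 64.2 FPKM, with log2 ratios of 0.03 with IRF3 siRNA, against 0.28 with YAP siRNA. PDIA4, the member of this group with the highest deposited FPKM, had 157, 175 and 167 FPKM. The remaining PDIA3, PDIA6, ERP29, ERP44, TXNDC11 and ERO1B had log2 ratios between -0.19 and 0.14 in both comparisons.

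The prolyl isomerases PPIB (cyclophilin B), FKBP2 and FKBP10, which turn proline bonds during folding, among them those of collagen for PPIB and FKBP10, had ratios above 0 in both knockdowns and none past 1.5-fold. PPIB had 223 FPKM with IRF3 siRNA, 238 with YAP siRNA and 189 with control siRNA, with log2 ratios of 0.24 and 0.33. FKBP10 had 66.9, 75.4 and 64.3 FPKM, with 0.06 and 0.23. FKBP2 had 19.3, 20.4 and 17.5 FPKM, with 0.13 and 0.21. With the trend removed the medians of these 3 genes were -0.10 with IRF3 siRNA and 0.09 with YAP siRNA, so the sign turned in the first.

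The sensors and factors of the unfolded protein response had the lowest median of the role groups with IRF3 siRNA, at -0.33. With YAP siRNA their median was -0.21, and that of the 2 lectin chaperones was lower, at -0.36. All 5 were below 0 with IRF3 siRNA and 4 with YAP siRNA, where 53.9% and 53.4% of all genes kept were. EIF2AK3 (PERK, ENSG00000172071, chromosome 2, 88556741 to 88627576), the kinase that slows translation under ER stress, had 1.64 FPKM with IRF3 siRNA, 1.92 with YAP siRNA and 2.98 with control siRNA, from 189, 213 and 321 counts. It fell by 0.59 with IRF3 siRNA and had a log2 ratio of -0.45 with YAP siRNA; at this low level the pseudocount shrinks both, and the count ratios were 0.550 (0.457 to 0.660) and 0.643 (0.539 to 0.768). ATF6 had 4.94, 5.89 and 6.96 FPKM, with log2 ratios of -0.42 and -0.21. ERN1 (IRE1), the kinase and nuclease that splices XBP1 RNA, had 1.89, 2.01 and 2.63 FPKM, with -0.33 and -0.27. Its count ratios were 0.717 (0.621 to 0.826) and 0.764 (0.663 to 0.879).

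ATF6B, a close relative of ATF6, had 8.52 FPKM with IRF3 siRNA, 10.6 with YAP siRNA and 10.5 with control siRNA, with log2 ratios of -0.28 and 0.00. XBP1, the target of ERN1, had 17.1, 14.9 and 17.4 FPKM, with -0.02 and -0.21. In each of these 5 genes the count ratio to control of at least 1 knockdown had a counting interval below 1. Members of other groups, such as RPN2 and OS9, had such intervals too. The share of all genes kept with such an interval was not computed, so this is no result about the 5. With the trend removed the medians of the 5 were -0.15 and -0.09, and EIF2AK3 was at -0.33 with IRF3 siRNA, no longer past 1.5-fold.

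For ERAD, 9 of 11 genes were kept, and the group median was -0.21 with IRF3 siRNA, against -0.14 with YAP siRNA. In each, 7 of the 9 were below 0. SEL1L (ENSG00000071537, chromosome 14, 81471549 to 81533861), the scaffold of the HRD1 ubiquitin ligase complex, had 4.05 FPKM with IRF3 siRNA, 4.44 with YAP siRNA and 8.07 with control siRNA, from 648, 684 and 1205 counts. Both knockdown libraries lay near each other and below control. SEL1L fell by 0.84 with IRF3 siRNA and by 0.74 with YAP siRNA, with count ratios of 0.502 (0.456 to 0.553) and 0.550 (0.5004 to 0.605). The first was the lowest ratio of any kept member in that comparison. With the trend removed the log2 ratios were -0.55 and -0.49, short of 1.5-fold. SYVN1 (HRD1), the ligase that SEL1L holds, had 4.27, 4.12 and 4.51 FPKM, with log2 ratios of -0.06 and -0.10. SYVN1 shares exon sequence with FAU and MRPL49, and their summed counts gave 0.41 and 0.18.

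The mannosidase-like EDEM proteins mark misfolded glycoproteins for disposal. EDEM3 was under the filter at 0.5002 FPKM with IRF3 siRNA, 0.551 with YAP siRNA and 1.31 with control siRNA, from 114, 121 and 278 counts. Its count ratios of 0.383 (0.305 to 0.478) and 0.422 (0.338 to 0.524) were the lowest of all members with more than 2 counts per library, below those of SEL1L. EDEM1 had 2.62, 2.45 and 3.49 FPKM, with log2 ratios of -0.31 and -0.38. The count ratios of EDEM1 were 0.75 (0.65 to 0.86) and 0.70 (0.60 to 0.81). EDEM2 had 22.4, 23.9 and 22.2 FPKM, with log2 ratios of 0.02 and 0.10. The 3 paralogs thus differed in their ratios to control. With the trend removed EDEM1 had -0.03 and -0.15 and EDEM2 had -0.14 and -0.04, so EDEM1 was no longer the lower with IRF3 siRNA. Of the derlins, which form part of the exit channel, DERL1 had 45.7, 43.6 and 60.1 FPKM, with log2 ratios of -0.39 and -0.45. DERL2 had -0.21 and -0.14, and DERL3 had 2, 1 and 2 counts, too few to compare. The lectin OS9 had -0.13 and -0.15, and the stress-induced HERPUD1 had -0.32 with IRF3 siRNA and -0.02 with YAP siRNA. VCP (p97), the ATPase that pulls substrates out of the membrane, had 62.1, 60.8 and 59.4 FPKM, with 0.06 and 0.03.

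The Sec61 translocon and its partners were all 9 kept and spread widely, and the group median was 0.04 with IRF3 siRNA, against -0.01 with YAP siRNA. The 3 subunits of the channel itself had ratios near 0: SEC61A1 had 0.01 and -0.02, SEC61G had 0.04 and 0.15, and SEC61B had 0.07 and 0.22, with 105 FPKM with IRF3 siRNA, 116 with YAP siRNA and 99.7 with control siRNA. The membrane proteins SEC62 and SEC63, which help the channel take up completed chains, stood lower. SEC63 (ENSG00000025796, chromosome 6, 107867756 to 107958189) had 1.78 FPKM with IRF3 siRNA, 1.91 with YAP siRNA and 3.27 with control siRNA, from 296, 305 and 507 counts. It fell by 0.62 with IRF3 siRNA and had -0.55 with YAP siRNA, with count ratios of 0.545 (0.471 to 0.630) and 0.583 (0.504 to 0.674). SEC62 had 1.23, 0.947 and 1.87 FPKM, with log2 ratios of -0.36 and -0.56 and count ratios of 0.658 (0.542 to 0.797) and 0.507 (0.410 to 0.625). The low level of both genes means that the pseudocount shrinks these log2 ratios.

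The translocon-associated protein (TRAP) complex, which binds the channel and aids some signal sequences, has 4 subunits that did not share 1 direction. SSR1 (ENSG00000124783, chromosome 6, 7268306 to 7347446) had 4.01 FPKM with IRF3 siRNA, 2.997 with YAP siRNA and 5.73 with control siRNA, from 1037, 746 and 1382 counts. Its log2 ratio was -0.42 with IRF3 siRNA, a count ratio of 0.701 (0.646 to 0.760). It fell by 0.75 with YAP siRNA, a count ratio of 0.523 (0.478 to 0.573). SSR2 had log2 ratios of 0.23 with IRF3 siRNA, against 0.22 with YAP siRNA, SSR4 had 0.35 and 0.27, and SSR3 had 0.26 and -0.01. With the trend removed SEC63 had -0.29 and -0.27 and SSR1 had -0.08 and -0.45, none of them past 1.5-fold.

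The oligosaccharyltransferase transfers the glycan to the nascent chain, and its 5 listed subunits had medians of -0.07 with IRF3 siRNA, against 0.10 with YAP siRNA. The catalytic subunits belong to separate complexes: STT3A works at the translocon during synthesis and STT3B takes sites that were skipped. STT3B had 7.54 FPKM with IRF3 siRNA, 8.56 with YAP siRNA and 11.7 with control siRNA, with log2 ratios of -0.57 and -0.41, short of 1.5-fold. Its count ratios were 0.643 (0.589 to 0.703), past 1.5-fold, and 0.730 (0.670 to 0.796). STT3A had 32.7, 36.8 and 34.3 FPKM, with -0.07 and 0.10. DDOST, a non-catalytic subunit of both complexes, had 80.6, 84.4 and 61.6 FPKM, with 0.38 and 0.45, the highest of any member with YAP siRNA. RPN2 had 62.9, 64.3 and 73.2 FPKM, with -0.22 and -0.19, and RPN1 had 0.00 and 0.15.

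**Figure D4:**
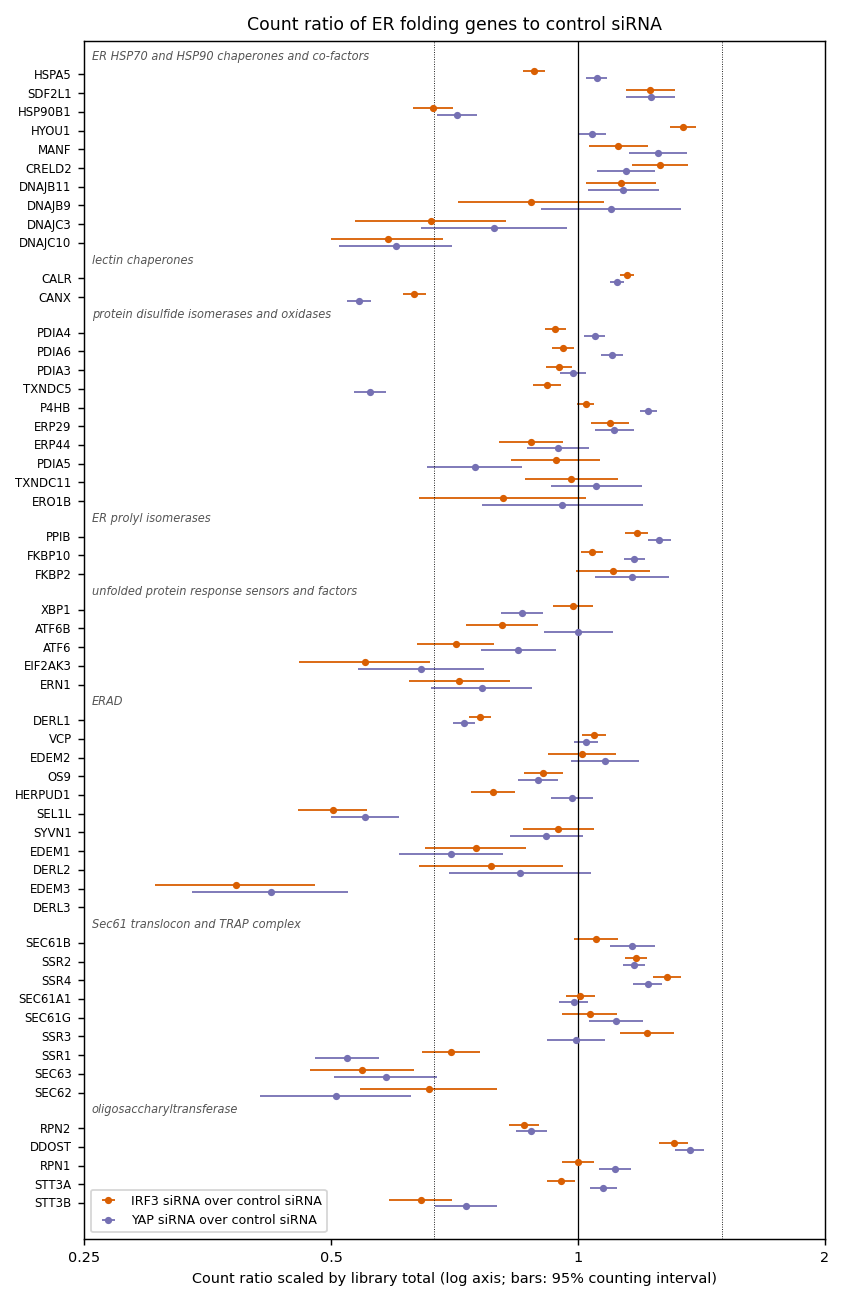
Ratio of counts to control siRNA, scaled by library total (log axis), with 95% counting intervals, for 54 members (DERL3 is left out for its low counts), IRF3 siRNA above YAP siRNA in each row; dotted lines mark 1.5-fold in either direction. Points left of the lower line in both knockdowns include CANX, SEL1L, EDEM3, SEC63 and EIF2AK3, and no point reaches the upper line.

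Members with lower ratios tended to be longer. Across the 52 members the log2 ratio to control had a Pearson r with log2 exon length of -0.51 with IRF3 siRNA, against -0.58 with YAP siRNA, beside -0.28 and -0.31 across 11072 genes. The corresponding r with GC content was 0.56 and 0.50, beside 0.35 and 0.25 across 11066 genes, and with log2 level it was 0.48 and 0.45, beside 0.24 and 0.24 across all genes kept. These are descriptions across genes that share the same libraries, and genes are not independent replicates. The median of the 26 longer members was -0.26 with IRF3 siRNA, against -0.14 with YAP siRNA, and that of the 26 shorter ones was 0.01 and 0.12. Genes of the whole table divided at the same length had -0.14 and -0.12 above it, and 0.05 and 0.05 below it. The members past 1.5-fold, SEL1L (9.56 kb, 39.4% GC), CANX (6.24 kb, 41.6%), SEC63 (8.59 kb, 39.4%), EIF2AK3 (5.43 kb, 44.4%), SSR1 (11.3 kb, 40.6%) and TXNDC5 (4.39 kb, 51.3%), stand beside a median member length of 4.70 kb, and TXNDC5 alone of these 6 was shorter. With the trend over expression level, length and GC content removed, no member was 1.5-fold lower with IRF3 siRNA and only CANX and TXNDC5 were with YAP siRNA, where 2.46% and 2.49% of all genes kept were.

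**Figure D5:**
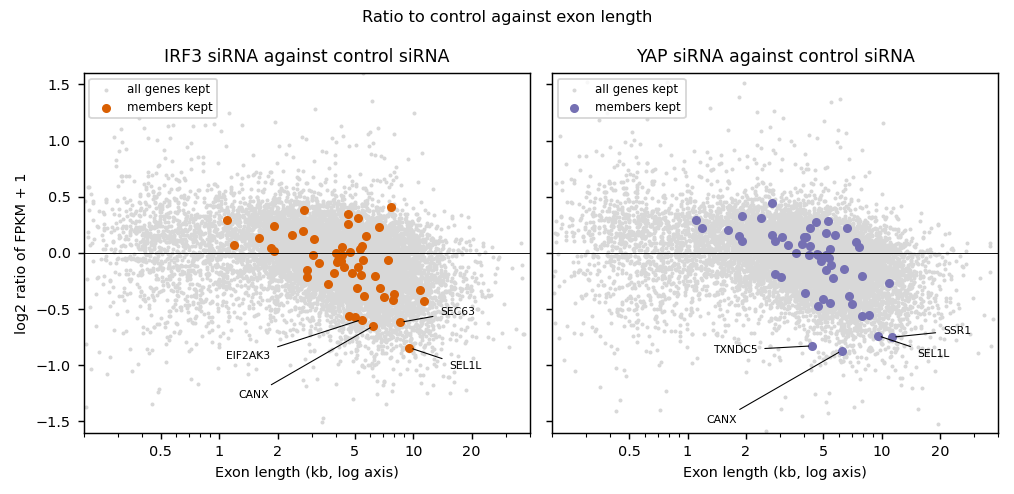
Log2 ratio of FPKM + 1 to control siRNA (vertical axis) against the length of annotated exon sequence in kb (log axis), members kept in colour over all genes kept in grey, IRF3 siRNA left and YAP siRNA right; members past 1.5-fold are named. The coloured points drop towards longer genes, and TXNDC5 with YAP siRNA is low at 4.39 kb. A few grey points beyond the vertical axis are not drawn.

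The genes with an ER stress response element were compared with the other members that had a promoter entry. The 8 kept members with the element had a median log2 ratio of -0.12 with IRF3 siRNA (6 below 0) and 0.02 with YAP siRNA (4 below 0), and the 39 without it had -0.07 and 0.00. Their ranges overlapped throughout: the holders ran from -0.65 to 0.31 with IRF3 siRNA and from -0.87 to 0.18 with YAP siRNA, with CANX lowest and CRELD2 highest in each. The holders of element II had ratios of 0.41 and 0.06 (HYOU1), 0.29 and 0.29 (SDF2L1), and -0.32 and -0.02 (HERPUD1). HYOU1, SDF2L1 and HERPUD1 are among the 39 genes counted above as without the element. Grouping by either element put 11 kept members beside 36 holding neither. For IRF3 siRNA the middle log2 ratio was then -0.059 for holders, beside -0.072 for the rest. For YAP siRNA it was 0.056, beside -0.003. The order of the groups for IRF3 siRNA thus turned when element II was included.

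The direct comparison leaves out the control library and set IRF3 siRNA against YAP siRNA. TXNDC5 was the single member of 52 at least 1.5-fold higher with IRF3 siRNA (log2 ratio 0.70, or 0.72 with the trend removed, and count ratio 1.65), where 1.18% of all genes kept were, and none was 1.5-fold lower, where 1.28% were. At 2-fold 0.297% of all genes kept were higher and 0.315% lower. The members' median was -0.07, beside -0.01 over all genes kept, and 34 of 52 members (65.4%) were lower with IRF3 siRNA, against 51.8% of all genes kept. HYOU1 (0.35), SSR1 (0.33), PDIA5 (0.28) and SSR3 (0.27) followed TXNDC5 on the higher side. HERPUD1 (-0.29), ATF6B (-0.28), DNAJB9 (-0.26), HSPA5 (-0.25) and P4HB (-0.25) were on the lower side, all short of 1.5-fold. All 5 listed oligosaccharyltransferase subunits were lower with IRF3 siRNA, with a median of -0.15 and a range of -0.17 to -0.03. For RPN2 the counting interval of the ratio (0.937 to 1.023) includes 1. Of the kept subunits outside the set, TMEM258 (0.50, or 0.12 summed with overlapping genes) and KRTCAP2 (0.08) were higher. OSTC (-0.34), DAD1 (-0.11), OST4 (-0.08) and MAGT1 (-0.06) were lower. All 3 prolyl isomerases were lower too, with a median of -0.09.

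Other genes of the same pathway were read as lists beside the members. Of the other folding and redox enzymes 25 of 30 were kept, and the group median was 0.09 with IRF3 siRNA, against 0.12 with YAP siRNA. SEP15, a selenoprotein that binds UGGT, fell by 0.74 with IRF3 siRNA and had -0.18 with YAP siRNA, at 10.9, 16.6 and 18.9 FPKM with IRF3, YAP and control siRNA. CNPY3, a chaperone partner of HSP90B1, had 0.57 and 0.41. CNPY2 had 0.55 and 1.02, the single gene of this list past 2-fold, where 0.351% of all genes kept were higher with YAP siRNA. It shares exon sequence with PAN2 and 2 further annotated loci, however, and their summed counts gave -0.07 and 0.02. For N-glycan assembly and trimming, 25 of 30 genes were kept, with medians of 0.07 and 0.10. UGGT1, the folding sensor that returns glycoproteins to calnexin and calreticulin, fell by 0.84 and 0.70, at 4.10, 4.59 and 8.10 FPKM in the order above. GANAB, the glucosidase that trims their glycans, had 0.41 and 0.46, and DPM3, a subunit of dolichol-phosphate mannose synthase, had 0.58 and 0.56. UGGT1 was the single gene of that list past 1.5-fold, in each comparison with control. Of all genes kept, 5.88% were at least 1.5-fold lower with IRF3 siRNA and 4.64% with YAP siRNA, so this count is no result about the list. With the trend removed UGGT1 was at -0.51 and -0.42, short of 1.5-fold.

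All 32 genes of signal recognition, signal peptidase and tail-anchor insertion were kept, with medians of 0.04 and 0.09. TRAM2, a translocon-associated protein, fell by 0.89 and 0.82, at 7.26, 7.65 and 14.3 FPKM with IRF3, YAP and control siRNA. MMGT1, a subunit of the ER membrane complex, fell by 0.65 with IRF3 siRNA (-0.50 with the trend removed, short of 1.5-fold) and had -0.52 with YAP siRNA. EMC9, a subunit of the same complex, rose by 0.63 with IRF3 siRNA and had 0.58 with YAP siRNA, but its sum with the overlapping PSME1 and 1 further locus gave 0.26 and 0.23, and removal of the trend alone gave 0.43 and 0.43. Of the other ERAD factors 31 of 34 were kept, with medians of -0.07 and -0.14. FAF2, an adaptor of VCP, had -0.55 and -0.38, the ligase MARCH6 had -0.50 and -0.41, and the lectin ERLEC1 had -0.49 and -0.21. UBE2G2, an ERAD ubiquitin-conjugating enzyme named after its values were seen, had -0.28 with IRF3 siRNA and fell by 1.05 with YAP siRNA, at 3.60, 1.68 and 4.57 FPKM. It was the single gene of the list past 1.5-fold against control. Of all genes kept, 4.64% were at least 1.5-fold lower with YAP siRNA, so this count is no result about the list. Of the other stress signalling genes 27 of 29 were kept, with medians of -0.04 in each. PPP1R15B, the constitutive partner of the phosphatase that restores translation, fell by 0.69 and 0.61, but was at -0.54 and -0.52 with the trend removed, short of 1.5-fold. CHAC1, a stress-induced glutathione-degrading enzyme, had -0.14 with IRF3 siRNA and fell by 0.96 with YAP siRNA. YY1, a transcription factor, had -0.42 and -0.51.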

How the data were processed

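RNA-seq gave 3 libraries, 1 per group, and p-values were not computed. Per the submitters' processing notes, reads were aligned with TopHat2 2.0.9 on hg38. How reads were assigned to genes, on which annotation and with which strand setting, was not stated there. Per the file headers, the authors' table holds raw counts and FPKM for each gene. All of the 45223 FPKM values checked (100%) matched, to 1%, what the counts give with a fixed length per gene. Totals were 13949401 to 14941556 counts per library.

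Log2 ratios used FPKM plus a pseudocount of 1, and genes with a mean of at least 1 FPKM over the 3 libraries were kept. Differences of 1.5-fold and 2-fold are size rules, not tests. Count ratios carry exact binomial 95% intervals, which cover counting error only. Exon length, GC content (of the longest transcript) and exon overlap came from GENCODE release 29 for 11066 of the 11103 genes kept, and for all 55 members. Trends were additive splines with 4 degrees of freedom each. Genes named are, in each role group, the most abundant and the 3 with the largest ratios, members past 1.5-fold, HSPA5 and the stress sensors, and up to 3 genes with at least 5 FPKM per other list; further members are given to account for the whole set. The members and lists were chosen with earlier results of these data known. Tools were edgeR 4.0.16 in R 4.3.3 and, in Python 3.11.15, patsy 1.0.2, scipy 1.17.1, matplotlib 3.10.9, pandas 2.3.3 and numpy 2.4.6.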

Additional observations from a re-analysis of the deposited data

How the results depend on the processing

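The 7 settings planned were TMM-scaled CPM (edgeR), centring on the median gene, a pseudocount of 0.1, a 5 FPKM filter or none, the trend over level, length and GC content removed, and sums with overlapping genes. FPKM on annotated exon length was added after seeing the data. Of 120 summary values, 115 stayed within 1.5 times their count or, for medians, within the members' typical counting interval. The exceptions were numbers of members at least 1.5-fold lower, 4 in each knockdown as reported, where 5.88% (IRF3 siRNA) and 4.64% (YAP siRNA) of all genes kept were. With IRF3 siRNA it was 2 with the 5 FPKM filter (4.1% of all genes) and 0 with the trend removed (2.46%). With YAP siRNA it was 7 with a pseudocount of 0.1 (9.68%), 7 on annotated exon length (5.93%) and 2 with the trend removed (2.49%). The share of all genes moved in the same direction each time. A pseudocount of 0.1 also gave 6 with IRF3 siRNA (11.8%), adding HSP90B1 and STT3B. The filter leaves fewer genes (40 members), a smaller pseudocount or length shrinks low genes less, and for the trend the cause was not tested. Of single calls with IRF3 siRNA, EIF2AK3 ended short of 1.5-fold with centring (-0.57) and CANX with TMM-scaled CPM (-0.56). Without a filter EDEM3 joined the count with IRF3 siRNA, which became 5. The members' median with IRF3 siRNA was 0.02 with TMM-scaled CPM, beside 0.06 over all genes kept, so medians this close to 0 can turn with the scaling. Of 675 values of named members, 72 moved by more than their counting interval, 40 of them with the trend removed and 28 with TMM-scaled CPM, and none past 1.5-fold changed sign. Ratios of members with few counts, such as EIF2AK3 and SEC62, are limited by depth. No paired analysis was possible because each group has 1 library.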

Other observations

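By position, chromosome 3 holds 9 of the 52 kept (17.3%), namely EDEM1, STT3B, MANF, PDIA5, SEC61A1, RPN1, SSR3, SEC62 and DNAJB11, against 4.49% of all genes kept. Their log2 ratios to control ran in both directions, from -0.57 (STT3B) to 0.26 (SSR3) with IRF3 siRNA.

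Motifs of the factors behind the genes targeted by the siRNAs were also searched in the promoters, on both strands. The interferon-stimulated response element core, GAAA and GAAA with 2 bases between them, was in 0 of the 49 member genes, against 4.38% of all genes. The TEAD motif core GGAATG was in 4 of the 49 (ERN1, RPN2, SEC62 and SSR3, 8.16%), against 16.7% of all genes. The absence of these letters from a window of this size says nothing about the factors themselves.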
